A study of Rattus norvegicus with 6 samples.

Results

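The epidermal growth factor (EGF) family ligands and their ErbB receptors were followed here as 10 genes, the ligand genes Hbegf, Areg, Ereg, Tgfa, Btc and Nrg1 and the receptor genes Egfr, Erbb2, Erbb3 and Erbb4. They were taken by gene symbol from a table of 40456 genes, and all 10 were present in it. The cells were H9c2 (2-1), a rat cardiomyoblast line, of wild-type genotype and described as cardiomyocyte in the labels. Both groups had been kept for 5 days in DMEM with 1% serum and 1 µM retinoic acid added daily, and had then received 25 nM of a locked nucleic acid (LNA) gapmer with a lipid transfection reagent for 24 h. Gapmers are short antisense strands that pair with a target RNA and mark it for cleavage by RNase H. The 3 control libraries came from cells given the negative control LNA and the 3 knockdown libraries from cells given the LNA against Tug1, a long non-coding RNA. The labels number the libraries within each group but do not say whether they came from separate cultures, so p-values measure the spread between these libraries, which may be technical.

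ErbB receptors are receptor tyrosine kinases that pair on binding a ligand and signal through Ras, ERK and PI3K. The ligands are made as membrane-anchored precursors and are released by cell-surface proteases. HB-EGF, amphiregulin, epiregulin, TGF-alpha and betacellulin bind the EGF receptor, and some of them also ErbB4, whereas neuregulins bind ErbB3 and ErbB4. ErbB2 has no known soluble ligand and acts as the favoured partner of the other receptors, and ErbB3 has little kinase activity of its own. In the heart, neuregulin signalling through ErbB2 and ErbB4 is needed for formation of the ventricle, and loss of ErbB2 function is associated with cardiomyopathy.

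The only reagent that differed between the groups was the oligonucleotide, and the sequences of both are shown because every comparison rests on them. They are written 5′ to 3′ as the labels' protocols give them, with all bases in capitals.
Tug1 LNA: ATTCAGTAGACAGCTA
Negative control LNA: GCTCCCTTCAATCCAA

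For the ligands and receptors, the 250 bases before the start used for each promoter entry were read from RefSeq sequences of the rat assembly GRCr8, which held an entry for 7 of the 10 genes (Hbegf, Areg, Tgfa, Btc, Egfr, Erbb2 and Erbb4). For Tgfa, Erbb2 and Erbb4 that start lies inside the annotated gene, so their windows are not wholly upstream of it. Each window was searched on both strands for the cyclic AMP response element TGACGTCA, the GC box GGGCGG, the TATA-type sequence TATAAA and the AP-1-type sequence TGANTCA, which do not overlap one another in these windows. Upstream stretches are shown for Areg and Egfr, a ligand and a receptor that were lower after knockdown and whose windows lie outside the annotated gene. Capitals mark the motif matches, and the sequences run 5′ to 3′ towards the gene on its own strand. Areg lies on the minus strand, with its window at chr14:17265642-17265891, and Egfr on the plus strand, with its window at chr14:95378376-95378625.
Areg: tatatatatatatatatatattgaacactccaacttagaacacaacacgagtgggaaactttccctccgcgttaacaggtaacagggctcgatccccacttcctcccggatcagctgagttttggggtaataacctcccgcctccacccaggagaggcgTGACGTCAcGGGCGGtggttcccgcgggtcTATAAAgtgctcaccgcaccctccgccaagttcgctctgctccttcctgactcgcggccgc
Egfr: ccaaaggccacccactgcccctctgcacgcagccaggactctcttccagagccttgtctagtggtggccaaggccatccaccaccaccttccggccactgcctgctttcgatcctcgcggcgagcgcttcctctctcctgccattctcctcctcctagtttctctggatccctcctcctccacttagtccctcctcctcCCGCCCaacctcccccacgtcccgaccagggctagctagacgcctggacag

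The Areg window held TGACGTCA 91 bases, GGGCGG 82 bases and TATAAA 61 bases before the start. The cyclic AMP response element occurred in 1.59% of all 33469 promoter windows of that length and in 2.63% of the 12289 windows that matched tested genes, and TATAAA in 12.9% and 7.10% of them. Among the 7 members with an entry, Areg alone held either motif. The GC box stood in 6 of the 7 windows, those of Areg, Tgfa, Btc, Egfr, Erbb2 and Erbb4, against 30.5% of all windows and 53.8% of those of tested genes. In Egfr it read CCGCCC on the printed strand, 51 bases before the start. TGANTCA stood in 0 of the 7 windows, against 6.34% of all windows and 4.78% of those of tested genes. The GC box was present both in genes that fell and in Erbb2, which rose, and these matches say nothing of binding.

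Total counts per library ran from 12978548 to 13544337, so 1 CPM, the usual library-scaled unit of counts, stood for 12.9 to 13.8 counts, and the limit of 3 counts taken as not detected stood for 0.217 to 0.232 CPM. These limits cover counting error only, since the reads carried no molecular identifiers. Tug1 itself was at 713, 672 and 718 counts in control libraries 1 to 3 and at 164, 152 and 165 in knockdown libraries 1 to 3, so the libraries followed their labels. Of 10 cardiomyocyte markers, Myh6, Myh7, Nppb and Ryr2 were at or under 3 counts in every library, whereas 9 of 10 skeletal muscle markers exceeded that limit, with summed levels of 1290 to 1300 CPM in controls and 1720 to 1860 CPM after knockdown. These 4 defining transcripts of the labelled cell type were thus not detected, and Tnni3, Nppa and Myl7 had at most 4 counts in any library. Tnnt2 and Actc1 were detected. The summed level of the cardiomyocyte list, almost all from Tnnt2, was 345 to 380 CPM in controls and 408 to 460 CPM after knockdown. The skeletal muscle list did not move one way. Most of it was called higher, with Myog going from 275 to 486 CPM. Myod1 fell by 0.32 on the log2 scale (edgeR adjusted p 0.000324), and Tnnc2 did not pass (edgeR adjusted p 0.222).

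Of the 10 genes, 7 had enough counts to be tested and all 7 differed between the groups, 6 lower and 1 higher after Tug1 knockdown. The 4 tested ligands (Hbegf, Areg, Tgfa and Nrg1) fell, to between 27.7% and 59.1% of its control level. Among the receptors, Egfr and Erbb3 fell and Erbb2 rose slightly. The background was high: edgeR's quasi-likelihood test called 61.7% of the 14216 tested genes at an adjusted p under 0.05, 30.9% lower and 30.8% higher. The groups did not overlap for any of the 7 members, against 65.6% of all tested genes, of which 32.6% had all knockdown libraries below and 33% had them above the controls. The median log2 fold change (knockdown over control) was -1.26 over the 7 tested members and 0.00432 over all tested genes. A fall by at least 1 on the log2 scale with a call was seen in 4 members (Hbegf, Areg, Nrg1 and Egfr) and in 5.21% of all tested genes. Ereg, Btc and Erbb4 had too few counts to be tested and Nrg1 entered the test only through its controls, so these shares describe the genes tested and are not a property of all 10. The 10 genes were also chosen with earlier results of these data known, so their values beside those of all genes are a description only. In bulk samples, fewer cells of a type and less RNA per cell cannot be told apart.

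**Figure D1:**
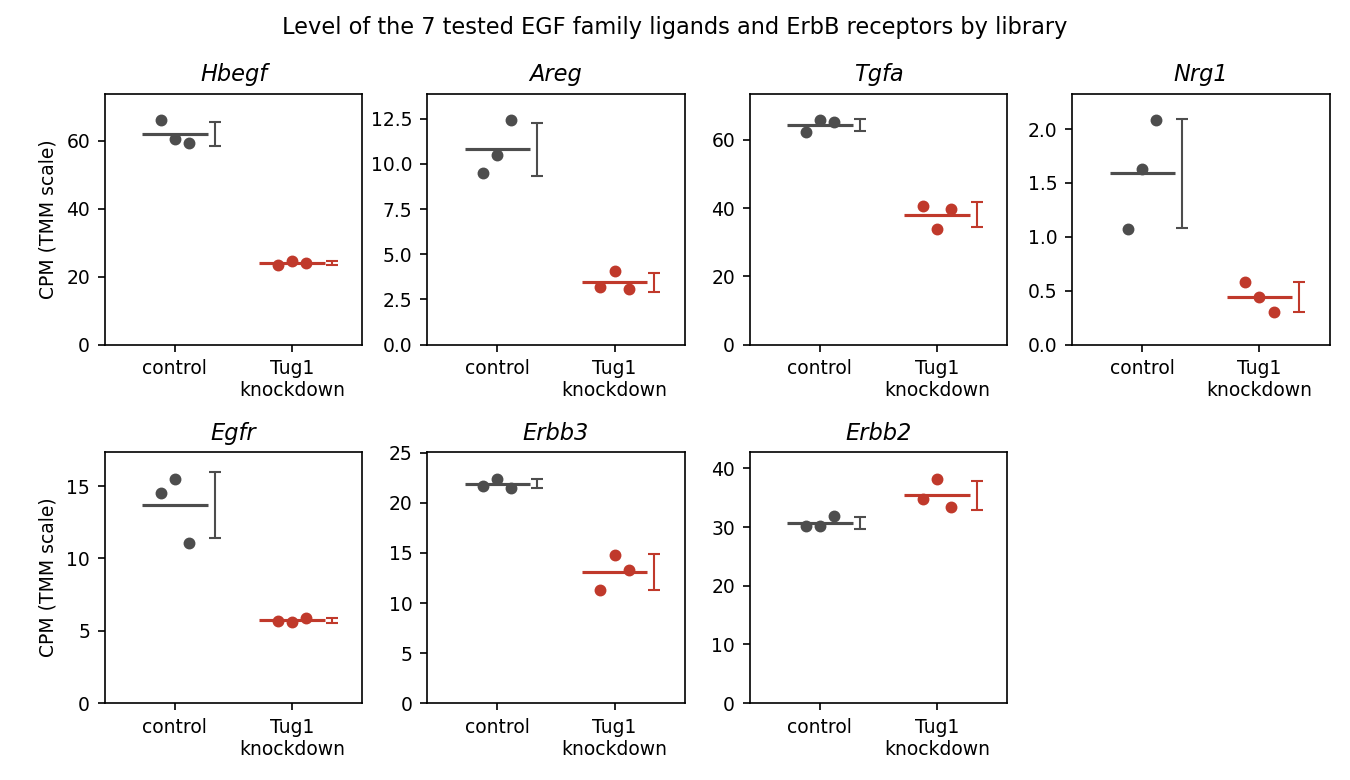
Levels in CPM (TMM scale, each vertical axis starting at 0) of the 7 tested genes in the 3 control and 3 knockdown libraries. Points are libraries, horizontal lines group means and bars the SD. In all 7 panels the groups are apart, with the knockdown points below the control points except for Erbb2.

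Hbegf encodes heparin-binding EGF-like growth factor, which is also the cell-surface receptor for diphtheria toxin. It had 861, 783 and 770 counts in control libraries 1 to 3 and 323, 334 and 319 counts in knockdown libraries 1 to 3. The groups did not overlap, and the 3 knockdown libraries lay close together. Hbegf went from 62.0 ± 3.54 to 24.1 ± 0.647 CPM (SD, n = 3 each), a log2 fold change of -1.37 (SE 0.069, 95% interval -1.51 to -1.22, edgeR adjusted p 1.45e-13). Values as low or lower were found for 2.5% of tested genes.

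Areg encodes amphiregulin, a ligand of the EGF receptor with lower affinity than EGF. Its counts were 124, 135 and 161 in control libraries 1 to 3 and 44, 55 and 41 in knockdown libraries 1 to 3. The groups were again apart, and control library 3 was the highest. The level went from 10.8 ± 1.48 CPM to 3.45 ± 0.536 CPM (SD, n = 3 each), a log2 fold change of -1.64 (SE 0.160, 95% interval -1.97 to -1.31, edgeR adjusted p 6.78e-09). Areg is the gene whose upstream sequence above holds the cyclic AMP response element.

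Areg lies in a run of 4 ligand genes. In the GRCr8 gene table the coding genes Btc, Areg, Ereg and Epgn follow one another on chromosome 14. Areg was the only one of the 4 to reach the filter on low counts. Ereg, for epiregulin, had 0 counts in all 6 libraries. Each library taken alone allows a level of up to 0.217 to 0.232 CPM, and the 6 together allow less. Btc, for betacellulin, had 9, 5 and 3 counts in control libraries 1 to 3 and 1, 5 and 5 in knockdown libraries 1 to 3. Its groups overlapped, and the ratio of its summed counts (17 in controls, 11 after knockdown) was 0.621 with a 95% counting interval (exact Clopper-Pearson) of 0.263 to 1.41, so a difference was not detectable at this depth. Epgn, for epigen, had at most 3 counts in any library.

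Tgfa encodes transforming growth factor alpha, like HB-EGF and amphiregulin a membrane-anchored ligand of the EGF receptor. Its counts were 814, 849 and 845 in control libraries 1 to 3 and 561, 459 and 524 in knockdown libraries 1 to 3. The control libraries agreed closely, and knockdown library 2 was the lowest of the 6. The level fell from 64.4 ± 1.76 to 38.1 ± 3.60 CPM (SD, n = 3 each), a log2 fold change of -0.76 (SE 0.0682, 95% interval -0.90 to -0.62, edgeR adjusted p 1.79e-09). This was the smallest fall among the ligands tested, and 8.76% of tested genes had a value as low or lower.

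Nrg1 encodes neuregulin 1, the ErbB3 and ErbB4 ligand best known in heart development. It was scarce, with 14, 21 and 27 counts in control libraries 1 to 3 and 8, 6 and 4 counts in knockdown libraries 1 to 3. The groups did not overlap, but the control counts spread widely. Nrg1 went from 1.59 ± 0.505 to 0.442 ± 0.139 CPM (SD, n = 3 each). The log2 fold change of -1.82 had the widest interval of the 7 genes, -2.63 to -1.02 (SE 0.390, edgeR adjusted p 0.000314). Nrg1 passed the filter on low counts only through its control libraries, so its place among the tested genes depended on being high there.

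The other EGF family ligands, fixed as a list of 5 genes, were scarce or not detected, and 0 of the 5 had enough counts to be tested. Egf, the founding ligand, had 7 to 10 counts in controls and 7 to 13 after knockdown, and Nrg4 had 4 to 12 and 5 to 12. Nrg2 and Nrg3 had at most 1 count in any library. Transcripts for EGF receptor ligands in these cells were thus mainly counted for Hbegf, Tgfa and Areg. Transcript lengths were not used here, so levels are not ranked between genes.

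Egfr encodes the EGF receptor. It had 189, 200 and 144 counts in control libraries 1 to 3 and 78, 76 and 78 counts in knockdown libraries 1 to 3. The knockdown libraries were nearly equal, while control library 3 lay below the other controls and still well above every knockdown library. The level went from 13.7 ± 2.30 CPM to 5.72 ± 0.147 CPM (SD, n = 3 each), a log2 fold change of -1.26 (SE 0.139, 95% interval -1.55 to -0.97, edgeR adjusted p 5.07e-08). Only 3.12% of tested genes had a value as low or lower.

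Erbb3 encodes the neuregulin receptor that recruits PI3K strongly. Its counts were 283, 289 and 279 in control libraries 1 to 3 and 156, 200 and 176 in knockdown libraries 1 to 3. The controls agreed closely and lay above all knockdown libraries. The level went from 21.9 ± 0.448 CPM to 13.1 ± 1.75 CPM (SD, n = 3 each), a log2 fold change of -0.74 (SE 0.100, 95% interval -0.94 to -0.53, edgeR adjusted p 1.14e-06).

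Erbb2, for the receptor without a ligand of its own, moved the other way. It had 393, 389 and 413 counts in control libraries 1 to 3 and 479, 516 and 442 counts in knockdown libraries 1 to 3. The groups did not overlap, but knockdown library 3, at 33.4 CPM, was close to control library 3, at 31.9 CPM. Erbb2 went from 30.7 ± 0.996 to 35.4 ± 2.47 CPM (SD, n = 3 each), a log2 fold change of 0.21 (SE 0.0741, 95% interval 0.05 to 0.36, edgeR adjusted p 0.0191). This call was lost with DESeq2's Wald test (adjusted p 0.0558) and when control library 1 (0.0664), control library 2 (0.0571) or knockdown library 2 (0.116) was left out. Over all alternatives the edgeR, limma or DESeq2 adjusted p of Erbb2 ran up to 0.116, and its log2 fold change stayed positive, from 0.15 to 0.26.

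Erbb4, the neuregulin receptor with its own kinase activity, had 0, 0 and 1 counts in control libraries 1 to 3 and 0, 2 and 0 counts in knockdown libraries 1 to 3. All libraries were under the limit of 3 counts, so no fold change is given. Of the receptor pair through which neuregulin acts in the heart, Erbb2 was therefore counted in every library and Erbb4 was not detected at this depth.

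**Figure D2:**
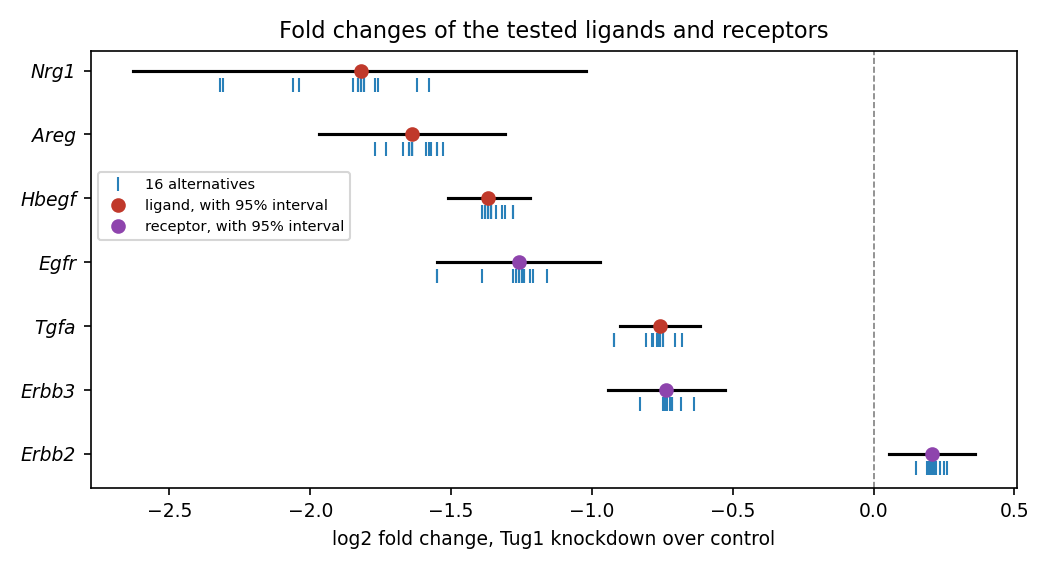
Log2 fold changes (knockdown over control) of the 7 tested genes, with 95% intervals from edgeR as lines and each of the 16 alternatives as a tick below. Nrg1 has the widest interval (-2.63 to -1.02), and Erbb2 is the only gene to the right of 0, with an interval of 0.05 to 0.36.

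The ranking of the fold changes was only partly resolved. The intervals of Nrg1, Areg, Hbegf and Egfr overlapped one another, as did those of Tgfa and Erbb3. In the main fit, the upper bounds of Nrg1 (-1.02), Areg (-1.31), Hbegf (-1.22) and Egfr (-0.97) all lay below the lower bounds of Tgfa (-0.90) and Erbb3 (-0.94). The bounds of Egfr and Erbb3 nearly met. With 1 library left out, log2 fold changes ran from -1.39 to -1.16 for Egfr and from -0.829 to -0.636 for Erbb3. No test between genes was made. In genomic span, 73.6% of tested genes were longer than Hbegf and 75.2% longer than Areg, while 0.138% were longer than Nrg1 and 5.68% longer than Egfr. For Tgfa and Erbb3 these shares were 16.1% and 51.5%. With an offset for gene length, log2 fold changes were -2.32 for Nrg1, -1.55 for Areg and Egfr, and -1.28 for Hbegf. Tgfa was then at -0.922 and Erbb3 at -0.714. Egfr thus lay below Hbegf with the offset and above it in the main fit. The part of gene span in the order of the fold changes was not tested beyond that refit.

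By a rule that took the ligand and the receptor with the highest mean CPM over the 6 libraries, without regard to transcript length, Tgfa and Erbb2 were compared with all other tested genes over the 6 libraries by the root mean square distance between centred log2 profiles. The nearest to Tgfa were Slc2a3 (distance 0.0263), Rbm4b (0.028) and Ggta1 (0.0375), whose log2 fold changes were -0.78, -0.79 and -0.74. The nearest to Erbb2 were LOC120103022 (0.0244), Rsl1 (0.027) and Snf8 (0.028), with log2 fold changes of 0.27, 0.20 and 0.24. With 2 groups of 3 libraries, such distances mainly reflect a similar difference between the groups.

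Transcripts for proteins that release the ligands changed in both directions. Of 12 shedding genes, 11 were tested and 8 differed (72.7%, against 61.7% of all genes), 3 lower and 5 higher, with a median log2 fold change of 0.16. Rhbdf1, for the inactive rhomboid iRhom1 that escorts the sheddase ADAM17 to the cell surface, fell from 69.1 ± 5.26 to 32.8 ± 0.290 CPM (SD, n = 3 each; log2 fold change -1.08, SE 0.0666, edgeR adjusted p 3.87e-12). Furin, the proprotein convertase that matures ADAM proteases, fell by 0.77 on the log2 scale (SE 0.052). Adam12, itself implicated in shedding of HB-EGF, fell by 0.25 (SE 0.049), and its log2 fold change was -0.63 with an offset for gene length. Bace1, a protease that cleaves neuregulin 1, rose by 0.28 (SE 0.0628). Adam17, the main sheddase of amphiregulin, TGF-alpha and HB-EGF, did not pass, with 81.0 ± 2.41 CPM for the control LNA and 84.7 ± 0.457 CPM for the Tug1 LNA (SD, n = 3 each; log2 fold change 0.06, edgeR adjusted p 0.302). It was named after its values were seen. With an offset for gene length, 2 instead of 5 shedding genes were called higher and 3 were again called lower.

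Genes that attenuate or traffic ErbB receptors were also mixed. Of 22 such genes, 20 were tested and 16 differed (80%, against 61.7% of all genes), 7 lower and 9 higher, with a median log2 fold change of 0.06. Over all tested genes 30.9% were called lower and 30.8% higher. Errfi1, for MIG6, an inhibitor that binds the ErbB kinase domain, fell from 115 ± 2.31 to 63.0 ± 1.49 CPM (SD, n = 3 each; log2 fold change -0.86, SE 0.0532, edgeR adjusted p 3.60e-12). Erbin, an ErbB2-binding scaffold, fell by 0.45 on the log2 scale (SE 0.0438). Usp8, a deubiquitinase of the endosomal route taken by EGF receptors, rose by 0.48 (SE 0.0572), and Lrig3, a transmembrane relative of the ErbB inhibitor LRIG1, rose by 0.76 (SE 0.104). With the length offset, 4 instead of 9 genes of this list were called higher, and 7 were again called lower.

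Adaptors and kinases downstream of the receptors were all measurable. Of 34 genes, 27 differed (79.4%), 9 lower and 18 higher, and the median log2 fold change was 0.20. Of all tested genes, 61.7% differed, 30.9% lower and 30.8% higher. The adaptor gene Crkl fell from 72.7 ± 1.16 to 32.7 ± 1.98 CPM (SD, n = 3 each; log2 fold change -1.15, SE 0.0631, edgeR adjusted p 5.29e-13). Sos2, a Ras exchange factor, rose by 0.89 (SE 0.0786), Araf, a RAF kinase, by 0.65 (SE 0.0594), and Ptpn11, for the phosphatase SHP2, by 0.60 (SE 0.0471). More genes of this list were thus called higher than lower, unlike the 6 lower and 1 higher among the ligands and receptors. With the length offset, 14 instead of 18 genes of this list were called higher and 6 instead of 9 lower. Both sets were chosen with earlier results of these data known, and the contrast between them was not tested.

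Genes known to be induced through ERK, a kinase below the receptors, were low together. All 18 were tested, and 16 fell and 0 rose (88.9% called, against 30.9% of all genes called lower), with a median log2 fold change of -0.84. Dusp6, an ERK phosphatase transcribed in response to ERK, fell from 174 ± 4.47 to 35.9 ± 1.21 CPM (SD, n = 3 each; log2 fold change -2.28, SE 0.0561, edgeR adjusted p 1.55e-18). The immediate early genes Ier2 and Egr1 fell too, with log2 fold changes of -1.82 (SE 0.0665) and -1.37 (SE 0.0814), as did Ccnd1, for cyclin D1, at -0.82 (SE 0.0453). The 2 genes not called were Ier3 (-0.03) and Spred2 (0.09). With the length offset, 1 gene of this list was called higher. The list was chosen with earlier results of these data known, so its share beside all genes is a description only. ERK activity itself was not measured, and several of these genes answer to other pathways too.

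**Figure D3:**
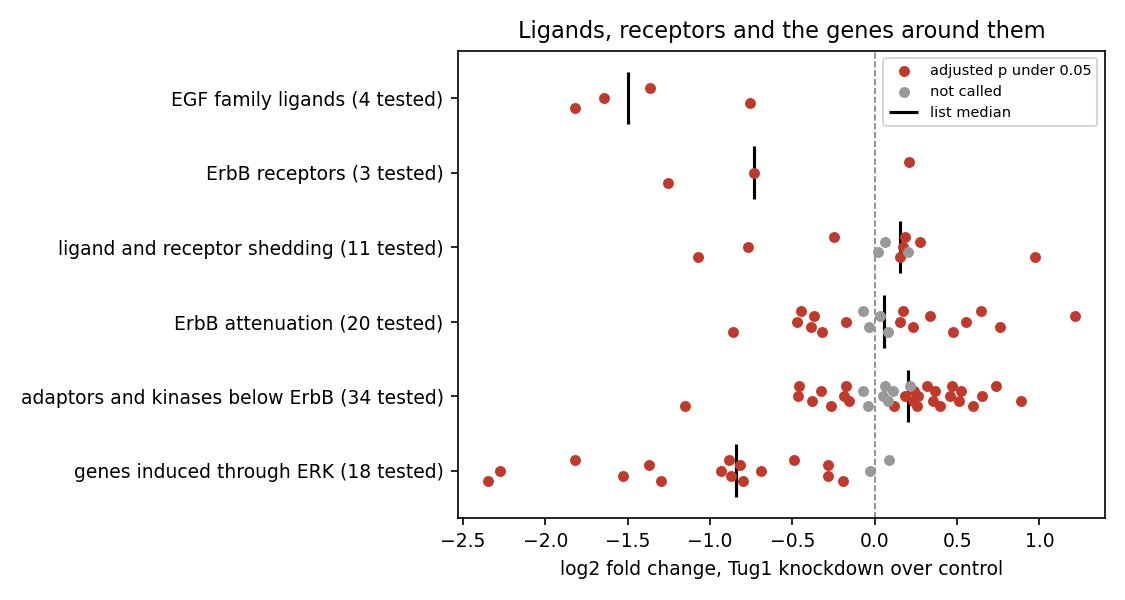
Log2 fold changes (knockdown over control) of the tested ligands, receptors and 4 lists of genes around them, 1 point per gene, red where the edgeR adjusted p was under 0.05, with the list median as a black line. Ligands (median -1.50) and genes induced through ERK (median -0.84) lie mostly left of 0, whereas the other 3 lists spread to both sides.

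Some single markers of other cell types also changed, but their lists did not move as a whole. EGF receptor ligands are well known from epithelia. Of 6 epithelial markers, Epcam, Cdh1, Krt18, Krt5 and Krt14 were at or under 3 counts in every library, and the summed level of the list, almost all from Krt8, was 77.0 to 89.3 CPM in controls and 52.9 to 57.2 CPM after knockdown. Among leukocyte markers, Ptprc was at 0 in all libraries, and the list's sum was 78.0 to 81.7 CPM in controls and 49.8 to 50.4 CPM after knockdown. The lower sum came from Cd14, which fell from 68 ± 1.19 to 33.4 ± 1.18 CPM (SD, n = 3 each). Cd68 rose by 1.09 on the log2 scale (edgeR adjusted p 2.41e-05), and Csf1r, with 0.205, did not pass (edgeR adjusted p 0.171), so this list did not move one way. Endothelial markers summed to at most 4.47 CPM and neuronal and Schwann cell markers to at most 4.28 CPM in any library, while fibroblast markers, led by collagens, summed to 43700 to 45100 CPM in controls and 41100 to 43900 CPM after knockdown. The fibroblast list did not move one way either. Col3a1 and Dcn were called higher (log2 fold changes 0.474 and 0.566), Col1a1 and Thy1 lower (-0.225 and -0.4), and Col1a2 and Lum were not called. The part of the falls of Krt8 and Cd14 and of the higher muscle sums in the results for the ligands and receptors was not tested.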

How the data were processed

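RNA from 6 libraries was sequenced after poly-A selection from 500 ng of total RNA (RNA integrity of at least 9) with a stranded kit, per the labels' protocols. The deposited values were unscaled whole-number counts for each gene symbol and library. FastQC 0.11.7, fastp 0.14.1 and STAR 2.5 are named in the submitters' processing notes. The counting tool, genome build, annotation, use of strand and treatment of multi-mapping reads are not given in the sources used here.

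Counts were fitted with edgeR 4.0.16 (R 4.3.3). Genes passed edgeR's filter (minimum count 10, minimum total 15), libraries were scaled by TMM (factors 0.979 to 1.02), and a two-sided quasi-likelihood test without a block was applied, with Benjamini-Hochberg adjustment over all 14216 tested genes and a call under 0.05. SEs and 95% intervals came from that fit. Within groups, pairs of libraries differed by more than sampling noise (chi-square per gene 2.17 to 3.57). On simulated counts over 14044 genes, changes of 0.5 and 1 on the log2 scale were recovered in 76% and 91% of changed genes. There, only 96 and 100 genes were changed by these amounts and every gene had the same dispersion. The rates therefore need not hold for these data or for scarce genes.

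The 10 genes and all lists were chosen with earlier results of these data known. Named were the members, Tug1, the 4 genes of smallest p in each pathway list, and the 3 nearest profiles (pseudocount 0.5 CPM, mean of at least 1 CPM). Alternatives used DESeq2 1.42.0, limma 3.58.1, other scalings and filters, a threshold of 0.01, a replicate block, a length offset (lowess span 0.3 on RefSeq genomic span) and each library left out. Protein features were not analysed here. A marker gene of 1 list is not reported here.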

Additional observations from a re-analysis of the deposited data

How the results depend on the processing

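All alternatives were planned. The 6 members that fell (Hbegf, Areg, Tgfa, Nrg1, Egfr and Erbb3) kept direction and call in each of 16 alternatives, as did Tug1 and the 16 genes named from the pathway lists. Those 16 genes were named for the smallest p in the main fit of these same libraries, so that outcome was largely fixed in advance. The threshold of 0.01 was applied to the main fit, so direction could not change there. Erbb2 stayed positive but was not called with DESeq2's Wald test (log2 fold change 0.203) or at 0.01 (0.206), which left 0 members called higher in place of 1. Leaving out 1 library gave Erbb2 values of 0.152 to 0.250 and 0 to 1 members called higher; without control replicate 1, control replicate 2 or knockdown replicate 2 the count was 0. With the length offset, whether or not the replicate block was added, 5 shedding genes were called (8 without it), 2 of them higher (5 without it), 4 attenuation genes were called higher (9 without it) and 1 gene of the ERK list was called higher (0 without it). The offset without the block made some falls larger, taking Nrg1 to -2.32, Egfr to -1.55, Tgfa to -0.922 and Adam12 from -0.249 to -0.631. It made other falls smaller, with Hbegf at -1.28, Areg at -1.55 and Erbb3 at -0.714. Among the named genes of the ERK list, Dusp6 (-2.12), Ier2 (-1.59), Egr1 (-1.2) and Ccnd1 (-0.73) also fell less. By construction the offset shifts each gene by a trend on genomic span fitted in each library. The cause of that trend was not tested. With library totals the median of all tested genes was 0.0571.

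Replicate numbers did not pair the libraries (correlations of deviations -0.00531, 0.0298 and 0.027 for numbers 1 to 3). With the replicate block alone, 8848 genes were called instead of 8773, Erbb2 was at 0.205, and all 7 members were called. At this depth Btc, Ereg and Erbb4 had too few counts to be tested. With no filter, edgeR's adjusted p for Btc was 0.512.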
